A study of Mus musculus with 12 samples.

Results

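Glutathione transferases were followed in mouse pluripotent cells as 10 genes: Gsta4 of the alpha class, Gstm1, Gstm2 and Gstm5 of the mu class, Gstp1 of the pi class, Gstt1 and Gstt2 of the theta class, Gsto1 of the omega class, and the membrane-bound Mgst1 and Mgst3. They were chosen by name, with their FPKM (fragments scaled to transcript length and library size) across the 4 groups of libraries already in view, so their levels and differences are described here and carry no test. The 10 genes are 10 of the 23136 loci with a gene name. All 10 reached the filter of at least 1 FPKM in at least 3 of the 12 libraries. Gstt1 did so only through its 6 EpiLC and Sirt1KO libraries, and Mgst1 was at or above 1 FPKM in 10 libraries.

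Polyadenylated RNA was sequenced from 4 groups of 3 libraries, all of strain C57 Bl/6J. EpiLC are wild-type epiblast-like cells, which resemble the epiblast after implantation. Sirt1KO Otx2KD are embryonic stem cells (ESC) with a Sirt1 knockout and a knockdown of Otx2, Sirt1KO are ESC with the knockout alone, and wild-type ESC carry neither change. Sirt1 encodes a protein deacetylase and Otx2 a homeodomain factor of the primed state, and the series set out to compare the ESC to EpiLC transition with the loss of Sirt1 and of Otx2. Every ESC group was kept on gelatin in N2B27, a medium free of serum, with LIF plus CHIR99021 at 3 uM against GSK3 and PD0325901 at 1 uM against MEK, while EpiLC spent 48 h on fibronectin in KOSR (1%), Activin A at 20 ng/ml and Fgf2 at 12 ng/ml, so the cell state of EpiLC and their medium cannot be told apart. Which part of Sirt1 was deleted, how Otx2 was knocked down, the number of clones and whether replicates came from separate cultures are not given in the sources used here, so p-values measure only the spread between these libraries, which may be technical.

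Glutathione transferases join the tripeptide glutathione to electrophiles such as lipid peroxidation products, quinones and drugs, which are then exported from the cell. The cytosolic classes are soluble dimers that differ in the substrates they take, while the Mgst proteins belong to a separate membrane-bound family that also reduces lipid hydroperoxides. Several genes of the alpha, mu and pi classes are known targets of the stress-responsive factor Nrf2, which binds antioxidant response elements in their promoters. Glutathione itself is made from glutamate, cysteine and glycine, and the same pool feeds the glutathione peroxidases.

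The depth of each library relative to the first wild-type ESC library, estimated from the steps between low FPKM values, was 0.888 to 1.33 in EpiLC, 0.767 to 1.31 in Sirt1KO Otx2KD, 1.05 to 1.20 in Sirt1KO and 0.986 to 1.02 in wild-type ESC. Absolute depth is unknown. Between 15775 and 16408 named loci were above 0 in a library, and no library files were identical. Summed FPKM of 7 primed markers, such as Fgf5 and Dnmt3b, was 753.7 to 772.9 in EpiLC, 61.2 to 67.4 in Sirt1KO Otx2KD, 158 to 232 in Sirt1KO and 44.8 to 49.5 in wild-type ESC. Dnmt3b held much of the EpiLC sum, at 477.5 FPKM. By limma's test 6 of the 7 were higher and 1, Foxd3, lower than in wild-type ESC, in EpiLC and in Sirt1KO alike. Of all tested loci, 35.8% were higher and 38.8% lower in EpiLC, and 32.4% and 32.7% in Sirt1KO. Summed FPKM of 8 naive markers, such as Esrrb and Klf4, was 254 to 264 in EpiLC, 982 to 1003 in Sirt1KO Otx2KD, 756 to 874 in Sirt1KO and 994.5 to 1006 in wild-type ESC. In Sirt1KO 2 of these 8, Klf4 and Tfcp2l1, were higher than in wild-type ESC by the same test and 6 were lower. Klf4 was at 108 ± 5.51 FPKM in Sirt1KO and 54.4 ± 1.94 FPKM in wild-type ESC (SD, n = 3 each). Sirt1 itself was at 15.6 ± 0.492 FPKM in Sirt1KO Otx2KD, 15.5 ± 0.196 in Sirt1KO and 25.8 ± 0.412 in wild-type ESC (SD, n = 3 each), a value that covers the whole gene and not the deleted part. Otx2 was at 6.07 ± 0.401 FPKM in Sirt1KO Otx2KD and 27.0 ± 6.36 FPKM in Sirt1KO (SD, n = 3 each), a log2 difference of -1.96 ± 0.12 (SE, limma adjusted p = 4.13e-08). Against wild-type ESC, at 7.38 ± 0.458 FPKM (SD, n = 3), Otx2 in Sirt1KO Otx2KD did not pass the test (log2 difference -0.25 ± 0.12, limma adjusted p = 0.103), though it did without Sirt1KO replicate 1 (adjusted p = 0.00425) or 3 (adjusted p = 0.0468) and in a fit of these 2 groups alone (adjusted p = 0.0198).

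Promoters of 4 of the genes are printed. Gstm5 and Gstp1 were both low in EpiLC and Sirt1KO, Mgst1 was lowest in Sirt1KO, and Gsto1 was highest in Sirt1KO Otx2KD. These genes include every one with a motif match given below. Gstt1, Gstt2 and Mgst3, described below as higher in EpiLC and Sirt1KO, have no promoter printed. Each printed promoter is 300 bases from RefSeq (GRCm38.p6), 250 before and 50 after the start of the promoter entry. It is read 5′ to 3′ on the gene's strand, with motif matches in capitals.
Gstm5: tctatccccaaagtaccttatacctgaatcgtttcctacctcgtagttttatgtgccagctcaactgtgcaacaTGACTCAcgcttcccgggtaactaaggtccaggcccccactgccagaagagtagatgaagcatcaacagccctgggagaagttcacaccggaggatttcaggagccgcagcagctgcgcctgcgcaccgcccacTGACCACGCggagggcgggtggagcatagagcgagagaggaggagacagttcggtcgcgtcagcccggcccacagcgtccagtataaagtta
Gstp1: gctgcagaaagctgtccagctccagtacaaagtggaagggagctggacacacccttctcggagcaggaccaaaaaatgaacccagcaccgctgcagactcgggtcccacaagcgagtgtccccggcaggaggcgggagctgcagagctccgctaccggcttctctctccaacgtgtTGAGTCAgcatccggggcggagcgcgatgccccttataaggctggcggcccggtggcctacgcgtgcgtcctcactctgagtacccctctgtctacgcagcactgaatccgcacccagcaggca
Mgst1: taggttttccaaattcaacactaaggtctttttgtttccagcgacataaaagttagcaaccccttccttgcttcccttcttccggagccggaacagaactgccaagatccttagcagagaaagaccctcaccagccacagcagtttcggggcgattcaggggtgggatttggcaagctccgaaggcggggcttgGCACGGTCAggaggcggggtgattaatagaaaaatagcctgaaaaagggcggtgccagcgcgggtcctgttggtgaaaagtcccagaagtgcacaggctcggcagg
Gsto1: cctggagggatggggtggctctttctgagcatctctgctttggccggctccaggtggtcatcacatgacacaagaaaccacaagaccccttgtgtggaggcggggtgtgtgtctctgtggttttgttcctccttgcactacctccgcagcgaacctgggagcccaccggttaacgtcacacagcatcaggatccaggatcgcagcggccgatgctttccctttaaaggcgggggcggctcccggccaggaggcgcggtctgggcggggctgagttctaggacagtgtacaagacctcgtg
The 4 windows lie at chr3:107895604-107895903 on the plus strand for Gstm5, chr19:4037863-4038162 on the minus strand for Gstp1, chr6:138140277-138140576 on the plus strand for Mgst1 and chr19:47854723-47855022 on the plus strand for Gsto1. Of the 10 genes, 8 had a promoter in this table, and Gsta4 and Gstt2 had none. Mgst1 and Gstm1 have more than 1 promoter entry, of which the one closest to the annotated start was read. Positions below count from the start of the entry. It lies 33 bases from the GENCODE gene start in Gstm5, 73 in Gstp1, 211 in Mgst1 and 3 in Gsto1. In Gstt1, also among the 8, this distance is 853 bases. The motifs, chosen after the sequences had been seen and searched on both strands, were the antioxidant response core TGACNNNGC, the AP-1 site TGANTCA, the Otx-type site TAATCC and the Ahr-Arnt core TNGCGTG. The antioxidant response core was found in 2 of the 8 promoters, Gstm5 at 42 to 34 bases before the start and Mgst1 at 56 to 48 bases before it on the opposite strand, and in 12.4% of 32851 promoters of the same length. The AP-1 site was found in 2 of the 8, Gstm5 at 176 to 170 and Gstp1 at 74 to 68 bases before the start, and in 7.81% of all promoters. The Otx-type and Ahr-Arnt motifs were found in 0 of the 8, against 7.06% and 5.07% of all promoters. With the bases after it, the AP-1 match in Gstp1 reads TGAGTCAGC, which differs from the antioxidant response core only in the base after TGA. Forms of the core with another base there were not searched, so the counts do not cover them. A match is a description of these letters and not of binding.

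Gstm1, Gstm2 and Gstm5 of the mu class, Gstp1 of the pi class and Gsta4 of the alpha class were lower in EpiLC and in Sirt1KO than in wild-type ESC, and Sirt1KO Otx2KD libraries lay above Sirt1KO in each of these 5 genes. Other mu class genes, given further on, did not all share this pattern. Gstm1 (chr3:107815167-107820891; gene coordinates follow the deposited files and the mm9 build named for them) was at 16.0, 16.4 and 16.6 FPKM in EpiLC, 32.3, 35.0 and 33.4 FPKM in Sirt1KO Otx2KD, 17.3, 17.7 and 18.0 FPKM in Sirt1KO, and 39.9, 41.9 and 43.7 FPKM in wild-type ESC. The 4 groups did not overlap, and the 2 low groups lay close together. Its log2 difference (here and below of FPKM + 1, which understates changes of low genes) was -1.30 ± 0.05 for EpiLC against wild-type ESC, -1.20 ± 0.05 for Sirt1KO against wild-type ESC, 0.89 ± 0.05 for Sirt1KO Otx2KD against Sirt1KO and -0.31 ± 0.05 for Sirt1KO Otx2KD against wild-type ESC (SE, limma fit over all 12 libraries).

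Gstm2 (chr3:107784619-107789354), a neighbouring mu class gene, was at 9.14, 8.25 and 8.97 FPKM in EpiLC, 19.3, 18.0 and 20.6 FPKM in Sirt1KO Otx2KD, 11.4, 11.7 and 16.4 FPKM in Sirt1KO, and 19.8, 25.9 and 27.0 FPKM in wild-type ESC. Sirt1KO Otx2KD and wild-type ESC overlapped, since the first wild-type ESC library lay below the highest Sirt1KO Otx2KD library. Its log2 difference was -1.36 ± 0.13 for EpiLC against wild-type ESC, -0.84 ± 0.13 for Sirt1KO against wild-type ESC and 0.54 ± 0.13 for Sirt1KO Otx2KD against Sirt1KO. Gstm5 (chr3:107680147-107701603), at the other end of the mu class cluster, was at 3.93, 2.70 and 4.33 FPKM in EpiLC, 7.37, 6.65 and 7.01 FPKM in Sirt1KO Otx2KD, 3.20, 1.96 and 3.10 FPKM in Sirt1KO, and 8.57, 9.79 and 9.12 FPKM in wild-type ESC. EpiLC and Sirt1KO overlapped and lay below the other 2 groups, which were apart from each other. The mean of Gstm5 in Sirt1KO was 0.301 times that of wild-type ESC (log2 difference -1.45 ± 0.14), the lowest such ratio of the mu, pi and alpha genes described here.

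Gstp1 (chr19:4035410-4037912), the pi class enzyme, which also binds signalling kinases, was at 44.8, 44.2 and 36.4 FPKM in EpiLC, 75.3, 75.5 and 74.9 FPKM in Sirt1KO Otx2KD, 43.2, 40.5 and 35.6 FPKM in Sirt1KO, and 69.0, 79.1 and 81.9 FPKM in wild-type ESC. The libraries fell into a low pair of groups, EpiLC and Sirt1KO, and a high pair, Sirt1KO Otx2KD and wild-type ESC, with overlap inside each pair. Its log2 difference was -0.86 ± 0.09 for EpiLC against wild-type ESC, -0.93 ± 0.09 for Sirt1KO against wild-type ESC, 0.91 ± 0.09 for Sirt1KO Otx2KD against Sirt1KO and -0.02 ± 0.09 for Sirt1KO Otx2KD against wild-type ESC. Gstp1 shares 33.7% of its 50-base stretches with its neighbour Gstp2 in the GENCODE transcripts, so how reads were divided between these 2 genes is uncertain.

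Gsta4 (chr9:78039772-78057156), an alpha class enzyme known for conjugating hydroxynonenal from oxidised lipids, was the most abundant of the 10 genes in every library. It was at 354, 362 and 369 FPKM in EpiLC, 509.5, 526 and 501 FPKM in Sirt1KO Otx2KD, 322, 344 and 346 FPKM in Sirt1KO, and 509, 505 and 507 FPKM in wild-type ESC. Sirt1KO lay below EpiLC, and Sirt1KO Otx2KD overlapped wild-type ESC. Its log2 difference was -0.49 ± 0.03 for EpiLC against wild-type ESC, -0.59 ± 0.03 for Sirt1KO against wild-type ESC, 0.60 ± 0.03 for Sirt1KO Otx2KD against Sirt1KO and 0.01 ± 0.03 for Sirt1KO Otx2KD against wild-type ESC. With quantile normalization of the libraries the EpiLC difference was -0.27.

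**Figure D1:**
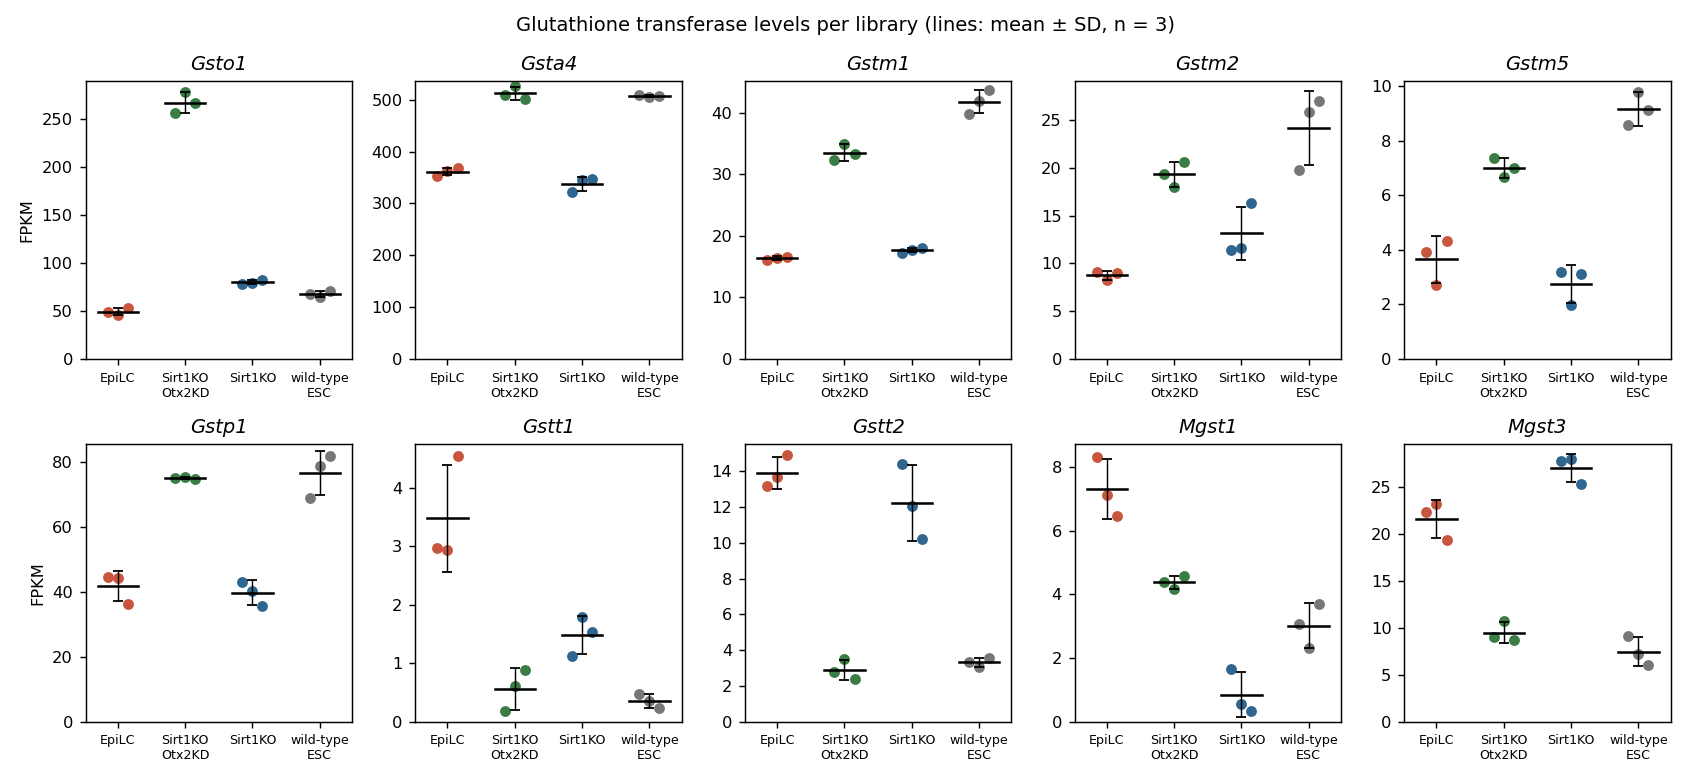
FPKM of the 10 glutathione transferases in each library, with 1 panel per gene and the groups EpiLC, Sirt1KO Otx2KD, Sirt1KO and wild-type ESC from left to right. Points are libraries, horizontal lines group means and bars SD (n = 3); Gstm1, Gstm2, Gstm5, Gstp1 and Gsta4 are low in EpiLC and Sirt1KO, Gstt2 and Mgst3 are high there, and Gsto1 is highest in Sirt1KO Otx2KD at 256 to 278 FPKM.

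For fibroblasts, a cell type that feeder layers would bring, a list of 15 marker genes was drawn up. The marker sums shared part of the pattern of these mu, pi and alpha class genes. Both were lower in EpiLC and Sirt1KO than in wild-type ESC, and higher in Sirt1KO Otx2KD than in Sirt1KO. Between Sirt1KO Otx2KD and wild-type ESC, Gstp1 and Gsta4 overlapped, whereas the marker sums were higher in Sirt1KO Otx2KD. Summed FPKM of the list without Sparc, left out after its values were seen because it held much of the sum, was 90.9 to 97.5 in EpiLC, 325 to 332 in Sirt1KO Otx2KD, 16.9 to 21.7 in Sirt1KO and 171 to 198 in wild-type ESC. With Sparc the sums were 186 to 194 in EpiLC, 755.1 to 760.3 in Sirt1KO Otx2KD, 296 to 341 in Sirt1KO and 675.5 to 723.5 in wild-type ESC. The sum of Gstm1, Gstm2 and Gstm5 was 27.4 to 29.9 FPKM in EpiLC, 59.0 to 61.0 FPKM in Sirt1KO Otx2KD, 31.4 to 37.5 FPKM in Sirt1KO and 68.2 to 79.8 FPKM in wild-type ESC. The mu sum and both marker sums were lower in EpiLC and Sirt1KO than in wild-type ESC. Between Sirt1KO Otx2KD and wild-type ESC the mu sum and both marker sums had opposite orders. Between EpiLC and Sirt1KO the order of the mu sum was that of the marker sum with Sparc and the opposite of the marker sum without it. By limma's test 2 of the 15 markers were higher and 11 lower in EpiLC than in wild-type ESC, 0 were higher and 15 lower in Sirt1KO than in wild-type ESC, 15 were higher and 0 lower in Sirt1KO Otx2KD than in Sirt1KO, and 12 were higher and 2 lower in Sirt1KO Otx2KD than in wild-type ESC. Of all tested loci, 35.8% were higher and 38.8% lower in the EpiLC comparison, and 32.4% and 32.7% in that of Sirt1KO. For Sirt1KO Otx2KD these shares were 31.1% and 31.5% against Sirt1KO, and 27.1% and 26.8% against wild-type ESC. None of the 15 was at 0 in every library of a group, and their part in the results on the transferases was not tested. In bulk RNA, fewer cells of a type and less RNA per cell cannot be told apart.

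**Figure D2:**
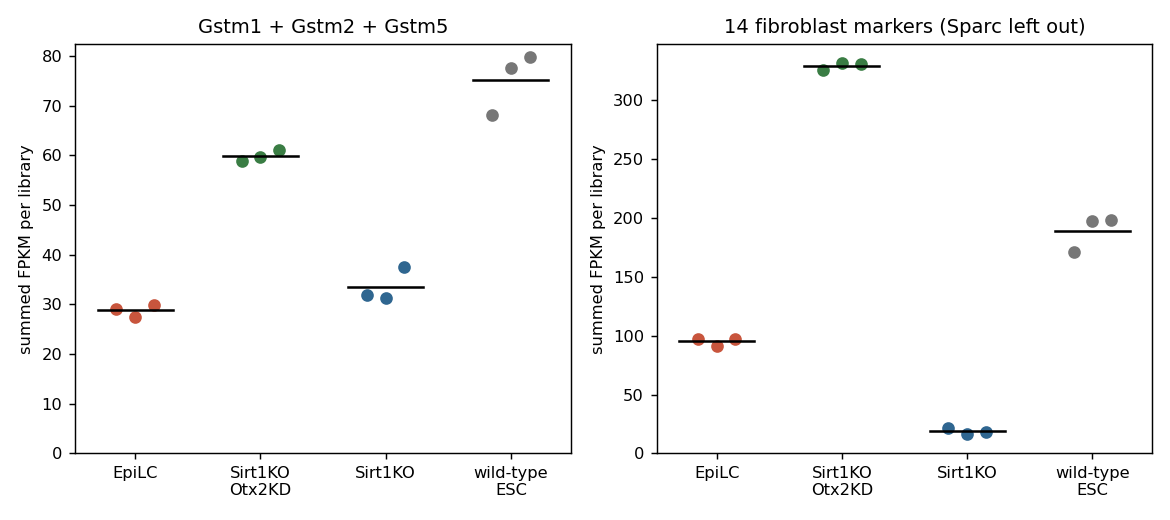
Summed FPKM per library of Gstm1, Gstm2 and Gstm5 (left) and of 14 fibroblast markers (right), with groups from EpiLC on the left to wild-type ESC on the right; points are libraries and lines group means. The mu class sum is highest in wild-type ESC at 68.2 to 79.8, and the marker sum is highest in Sirt1KO Otx2KD at 325 to 332.

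The other marker lists were smaller. Summed FPKM of 10 primitive endoderm markers was 40.2 to 41.6 in EpiLC, 33.1 to 34.8 in Sirt1KO Otx2KD, 25.0 to 27.5 in Sirt1KO and 20.2 to 20.6 in wild-type ESC, with Afp at 0 in every Sirt1KO Otx2KD and Sirt1KO library. Lamb1 held most of this sum, at 34.7 FPKM in EpiLC and 15.1 FPKM in wild-type ESC. Summed FPKM of 8 trophoblast markers was 19.1 to 22.9 in EpiLC, 65.3 to 66.1 in Sirt1KO Otx2KD, 59.9 to 61.7 in Sirt1KO and 84.8 to 90.0 in wild-type ESC. Tfap2c held most of the trophoblast sum in wild-type ESC, at 80.1 FPKM, and was at 27.2 FPKM in Sirt1KO. By limma's test 3 of the 4 tested trophoblast markers were higher and 1 lower in Sirt1KO than in wild-type ESC. Of all tested loci, 32.4% were higher and 32.7% lower there. In EpiLC against wild-type ESC 1 was higher and 3 lower (35.8% and 38.8% of all loci). In Sirt1KO Otx2KD 1 was higher and 2 lower than in wild-type ESC (27.1% and 26.8%). Against Sirt1KO, 1 was higher and 3 lower in Sirt1KO Otx2KD (31.1% and 31.5%). Of the 10 primitive endoderm markers 4 were tested. In the same order of comparisons, 3, 3, 4 and 3 were higher and 0, 1, 0 and 0 lower. The part of both lists in the results on the transferases was not tested.

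Gstt1 and Gstt2 of the theta class and Mgst3 had the opposite pattern and were higher in EpiLC and Sirt1KO than in the other 2 groups. Gstt2 (chr10:75294153-75298322), which acts on sulfate esters, was at 13.2, 13.7 and 14.9 FPKM in EpiLC, 2.77, 3.53 and 2.40 FPKM in Sirt1KO Otx2KD, 14.4, 12.1 and 10.2 FPKM in Sirt1KO, and 3.36, 3.06 and 3.54 FPKM in wild-type ESC. EpiLC and Sirt1KO overlapped at the high level, and Sirt1KO Otx2KD and wild-type ESC overlapped at the low level. The mean of Gstt2 in EpiLC was 4.19 times and in Sirt1KO 3.69 times that of wild-type ESC, with log2 differences of 1.79 ± 0.12 and 1.61 ± 0.12. The log2 difference of Gstt2 for Sirt1KO Otx2KD against Sirt1KO was -1.76 ± 0.12, the most negative of the 10 genes in that comparison.

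Gstt1 (chr10:75246557-75261329), known for acting on small halogenated hydrocarbons, was close to the lower end of what these libraries resolve. It was at 2.97, 2.93 and 4.54 FPKM in EpiLC, 0.180, 0.618 and 0.880 FPKM in Sirt1KO Otx2KD, 1.13, 1.78 and 1.53 FPKM in Sirt1KO, and 0.474, 0.360 and 0.233 FPKM in wild-type ESC. EpiLC lay above Sirt1KO, which lay above the overlapping Sirt1KO Otx2KD and wild-type ESC. The log2 difference for EpiLC against wild-type ESC was 1.71 ± 0.17 with a pseudocount of 1 and 2.98 with a pseudocount of 0.1, and the ratio of means was 9.78. Against wild-type ESC the Sirt1KO difference was 0.87 ± 0.17 with a pseudocount of 1 and 1.81 with 0.1, and against Sirt1KO the Sirt1KO Otx2KD difference was -0.69 ± 0.17 with 1 and -1.42 with 0.1.

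Mgst3 (chr1:169302514-169323928), a membrane-bound enzyme with peroxidase activity, was at 22.3, 23.1 and 19.3 FPKM in EpiLC, 9.05, 10.7 and 8.70 FPKM in Sirt1KO Otx2KD, 27.7, 27.9 and 25.3 FPKM in Sirt1KO, and 9.15, 7.19 and 6.08 FPKM in wild-type ESC. Here Sirt1KO lay above EpiLC without overlap. The log2 difference of Mgst3 was 1.43 ± 0.12 for EpiLC against wild-type ESC, 1.74 ± 0.12 for Sirt1KO against wild-type ESC and -1.42 ± 0.12 for Sirt1KO Otx2KD against Sirt1KO.

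Gsto1 and Mgst1 followed neither pattern. Gsto1 (chr19:47929478-47939278) encodes the omega class enzyme, which has a cysteine in its active site and reduces dehydroascorbate. It was at 49.0, 46.2 and 52.9 FPKM in EpiLC, 256, 278 and 266 FPKM in Sirt1KO Otx2KD, 78.2, 79.3 and 82.3 FPKM in Sirt1KO, and 68.2, 64.6 and 70.8 FPKM in wild-type ESC. No groups overlapped, and Sirt1KO Otx2KD was far above the rest. Its mean in Sirt1KO Otx2KD was 3.34 times that of Sirt1KO and 3.93 times that of wild-type ESC, with log2 differences of 1.73 ± 0.05 and 1.96 ± 0.05. The log2 difference of Gsto1 was 0.23 ± 0.05 for Sirt1KO against wild-type ESC and -0.45 ± 0.05 for EpiLC against wild-type ESC. Gsto2, the omega class gene beside it, was at or below 0.285 FPKM in every library.

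Mgst1 (chr6:138089057-138105273), which sits in the endoplasmic reticulum and the outer mitochondrial membrane, was low throughout. It was at 8.31, 7.11 and 6.47 FPKM in EpiLC, 4.37, 4.18 and 4.58 FPKM in Sirt1KO Otx2KD, 1.66, 0.558 and 0.346 FPKM in Sirt1KO, and 3.07, 2.30 and 3.68 FPKM in wild-type ESC. No groups overlapped, and Sirt1KO was the lowest, where replicate 1 was several times the other 2. EpiLC and Sirt1KO thus lay on opposite sides of wild-type ESC, with log2 differences of 1.05 ± 0.21 and -1.17 ± 0.21. The mean of Mgst1 in Sirt1KO Otx2KD was 5.13 times that of Sirt1KO (log2 difference 1.60 ± 0.21, or 2.48 with a pseudocount of 0.1). Without Sirt1KO replicate 1 the ratio was 9.68 (log2 difference 1.89), and the difference of Sirt1KO to wild-type ESC was -1.46. Mgst1 lies on chromosome 6, whose tested genes had a median log2 difference of 0.188 for Sirt1KO Otx2KD against wild-type ESC. With chromosome medians removed the Mgst1 difference in that comparison was 0.22, against 0.43 ± 0.21 as deposited.

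**Figure D3:**
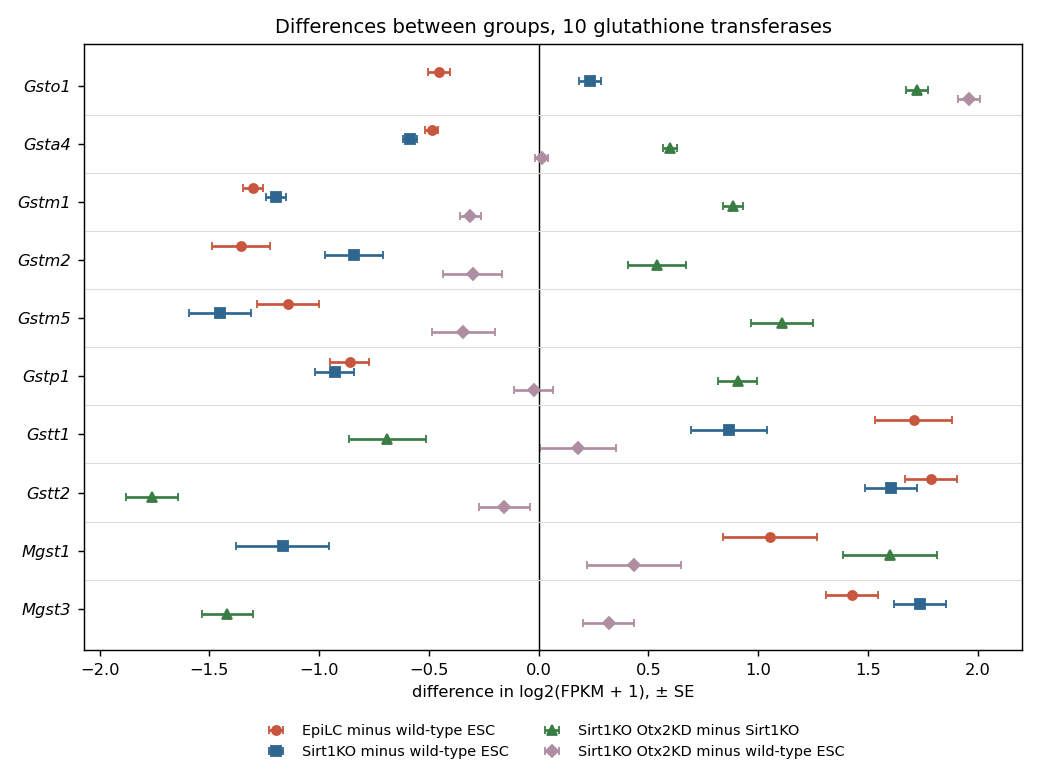
Differences in log2(FPKM + 1) of the 10 genes, with 1 row per gene and 1 marker per comparison; bars are SE from the limma fit. Gsto1 is the only gene with large positive values in both comparisons of Sirt1KO Otx2KD (1.73 and 1.96), and Mgst1 lies at 1.05 in EpiLC and -1.17 in Sirt1KO.

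Counted over the 10 genes, the EpiLC libraries lay wholly above wild-type ESC in 4 (Gstt1, Gstt2, Mgst1 and Mgst3) and wholly below in 6, against 37.1% and 39.7% of all tested loci (76.8% in either direction). Sirt1KO lay above wild-type ESC in 4 (Gsto1, Gstt1, Gstt2 and Mgst3) and below in 6, against 34.4% and 34.1% of all tested loci (68.5% in either direction). Sirt1KO Otx2KD lay above Sirt1KO in 7 and below in 3 (Gstt1, Gstt2 and Mgst3), against 33.5% and 33.7% of all tested loci (67.2% in either direction). Sirt1KO Otx2KD lay above wild-type ESC in 2 (Gsto1 and Mgst1), below in 2 (Gstm1 and Gstm5) and overlapped it in 6, against 30.9% above and 30.4% below (61.3% in either direction). Since the genes were chosen on these values, nothing is read from these counts. The median log2 difference of the 10 genes was -0.47 for EpiLC against wild-type ESC, -0.71 for Sirt1KO against wild-type ESC, 0.74 for Sirt1KO Otx2KD against Sirt1KO and -0.0046 for Sirt1KO Otx2KD against wild-type ESC, and over all tested loci the medians, in the same order of comparisons, were -0.0206, 0.00637, -0.0146 and -0.000952. The comparisons share control libraries: wild-type ESC enter 3 of them and Sirt1KO 2.

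Added together, the 10 genes came to 523 to 533 FPKM in EpiLC, 917 to 958 FPKM in Sirt1KO Otx2KD, 520.2 to 539 FPKM in Sirt1KO and 731 to 753 FPKM in wild-type ESC. Gsta4 made up 67.6% to 69.2% of this sum in EpiLC, 54.5% to 55.6% in Sirt1KO Otx2KD, 61.9% to 64.2% in Sirt1KO and 67.3% to 69.7% in wild-type ESC. The share of Gsto1 was 8.79% to 9.91% in EpiLC, 28.0% to 29.0% in Sirt1KO Otx2KD, 14.8% to 15.3% in Sirt1KO and 8.74% to 9.41% in wild-type ESC. Without Gsta4, the sum was 164 to 169.6 FPKM in EpiLC, 407 to 432 FPKM in Sirt1KO Otx2KD, 193 to 198 FPKM in Sirt1KO and 222 to 246 FPKM in wild-type ESC.

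The mu class genes lie together on chromosome 3, within 168 kb, in the order Gstm5, Gstm7, Gstm6, Gstm3, Gstm2, Gstm1 and Gstm4. The 4 that were not among the 10 genes were tested with limma over all loci (Benjamini-Hochberg adjusted p), and they did not share 1 pattern. Gstm3 was at 3.18 ± 0.593 FPKM in EpiLC, 8.57 ± 0.516 FPKM in Sirt1KO Otx2KD, 4.14 ± 0.426 FPKM in Sirt1KO and 12.7 ± 0.409 FPKM in wild-type ESC (SD, n = 3 each). It fell in EpiLC (log2 difference -1.72, adjusted p = 9.02e-10) and in Sirt1KO (-1.42, adjusted p = 1.3e-08) against wild-type ESC, and rose in Sirt1KO Otx2KD against Sirt1KO (0.90, adjusted p = 1.93e-06). Gstm6 fell in EpiLC (-0.48, adjusted p = 0.000834) and Sirt1KO (-0.92, adjusted p = 3.3e-06), and rose in Sirt1KO Otx2KD against Sirt1KO (0.62, adjusted p = 0.000165). Gstm7 rose in EpiLC (0.67, adjusted p = 0.000959) and did not pass in Sirt1KO (0.05, adjusted p = 0.78). Gstm4 rose in Sirt1KO (0.43, adjusted p = 0.00307) and did not pass in EpiLC (0.24, adjusted p = 0.0578). Gstm1 shares 8.16% of its 50-base stretches with Gstm3, and Gstm2 shares 0.655% with Gstm1, so the similar values of these neighbours are not fully separate measurements.

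**Figure D4:**
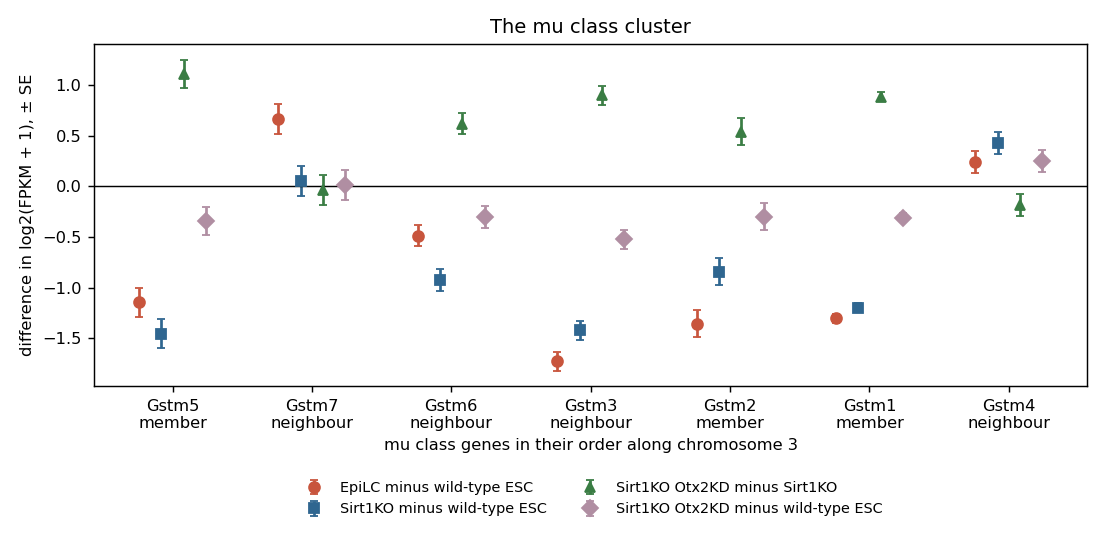
Differences in log2(FPKM + 1) with SE for the 7 mu class genes in their order along chromosome 3, with 1 marker per comparison. Gstm5, Gstm6, Gstm3, Gstm2 and Gstm1 are below 0 in EpiLC and Sirt1KO against wild-type ESC and above 0 in Sirt1KO Otx2KD against Sirt1KO, while Gstm7 and Gstm4 are not.

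Neighbours in the other classes were tested in the same way. Gstp2, beside Gstp1, was at 9.42 ± 1.34 FPKM in EpiLC, 25.2 ± 0.508 FPKM in Sirt1KO Otx2KD, 13.7 ± 1.39 FPKM in Sirt1KO and 31.1 ± 1.88 FPKM in wild-type ESC (SD, n = 3 each). It fell in EpiLC (log2 difference -1.63, limma adjusted p = 7.77e-10) and Sirt1KO (-1.13, adjusted p = 6.33e-08) and rose in Sirt1KO Otx2KD against Sirt1KO (0.84, adjusted p = 1.73e-06), in the directions seen in Gstp1. As Gstp1 shares 33.7% of its 50-base stretches with Gstp2, these are not fully separate measurements. Gstt3, whose first coordinate lies 9.69 kb before that of Gstt1, did not pass the test in EpiLC (log2 difference -0.20, limma adjusted p = 0.0741) or in Sirt1KO (0.14, adjusted p = 0.224) against wild-type ESC, though it did in EpiLC without EpiLC replicate 1 (-0.28, adjusted p = 0.0266). In Sirt1KO Otx2KD against Sirt1KO it fell (-0.57, adjusted p = 0.000173), and Gstt1 and Gstt2 were lower there too. Gstt4, between Gstt1 and Gstt2, was at or below 0.146 FPKM in every library, and Gsta1, beside Gsta4, was at 0 in all 12.

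Over a list of 19 further transferases and related membrane enzymes, 13 were tested. Of these 13, 2 rose and 7 fell in EpiLC against wild-type ESC (limma, adjusted p under 0.05), against 35.8% and 38.8% of all tested loci (74.6% together). In Sirt1KO, 2 rose and 6 fell against wild-type ESC, where 32.4% and 32.7% of all loci did (65% together). In Sirt1KO Otx2KD, 7 rose and 3 fell against Sirt1KO, where 31.1% and 31.5% of all loci did (62.6% together), and 2 rose and 6 fell against wild-type ESC, where 27.1% and 26.8% of all loci did (53.9% together). The median log2 differences of the list were -0.44, 0.05, 0.57 and -0.21 in the same order. Alox5ap, the membrane protein that presents arachidonate for leukotriene synthesis, was at 2.44 ± 0.57 FPKM in EpiLC, 4.05 ± 0.627 FPKM in Sirt1KO Otx2KD, 1.11 ± 0.17 FPKM in Sirt1KO and 7.59 ± 0.938 FPKM in wild-type ESC (SD, n = 3 each). Its log2 difference of -2.02 in Sirt1KO against wild-type ESC had an adjusted p of 7.99e-09. Gstk1, the kappa class enzyme, rose in Sirt1KO Otx2KD, at 5.30 ± 0.618 FPKM against 1.68 ± 0.147 FPKM in Sirt1KO (log2 difference 1.23, adjusted p = 1.84e-06). Ptges, a prostaglandin E synthase of the same membrane family as Mgst1, was at 5.94 ± 0.611 FPKM in Sirt1KO Otx2KD, 2.28 ± 0.125 FPKM in Sirt1KO and 1.81 ± 0.1 FPKM in wild-type ESC, and its log2 difference to wild-type ESC was 1.30 (adjusted p = 2.05e-08).

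Genes that make glutathione or break it down, held in 1 list of glutathione supply, changed in both directions. The list joins genes of synthesis, such as Gclc and Gss, with genes of breakdown, such as Chac1. Its counts and medians are therefore not a direction of supply. Of 13 tested of 16 listed, 6 rose and 7 fell in EpiLC (35.8% and 38.8% of all tested loci did), and 7 rose and 4 fell in Sirt1KO (32.4% and 32.7% of all loci). In Sirt1KO Otx2KD, 5 rose and 8 fell against Sirt1KO (31.1% and 31.5% of all loci), and 6 rose and 2 fell against wild-type ESC (27.1% and 26.8% of all loci). The median log2 differences of the list, in this order, were -0.16, 0.42, -0.27 and 0.15, and those of all tested loci are given with the 10 genes. Gclc, the catalytic subunit of glutamate-cysteine ligase, which makes the first bond of glutathione, rose in EpiLC to 37.5 ± 0.659 FPKM, against 15.0 ± 0.224 FPKM in wild-type ESC (log2 difference 1.27, limma adjusted p = 9.66e-12). Gclc was lower in Sirt1KO Otx2KD, at 16.1 ± 0.789 FPKM, than in Sirt1KO, at 28.4 ± 0.797 FPKM (log2 difference -0.78, adjusted p = 4.54e-09). Gss, glutathione synthetase, which completes the tripeptide, changed the other way and fell in EpiLC to 8.15 ± 1.25 FPKM, against 38.9 ± 1.46 FPKM in wild-type ESC (log2 difference -2.13, adjusted p = 1.02e-11). Gss was at 49.7 ± 1.12 FPKM in Sirt1KO Otx2KD and 16.6 ± 0.679 FPKM in Sirt1KO (log2 difference 1.53, adjusted p = 1.19e-09). Chac1, which degrades glutathione, rose in EpiLC to 33.3 ± 2.42 FPKM, against 9.56 ± 0.818 FPKM in wild-type ESC (adjusted p = 3.03e-09). Cth, which makes cysteine from cystathionine, was at 84.1 ± 2.99 FPKM in Sirt1KO Otx2KD, 67.1 ± 2.26 FPKM in Sirt1KO and 25.6 ± 2.1 FPKM in wild-type ESC (log2 difference 1.36 for Sirt1KO against wild-type ESC, adjusted p = 1.08e-10).

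Among genes that use glutathione or regenerate it, 23 of 26 were tested. Of these 23, 4 rose and 10 fell in EpiLC, where 35.8% and 38.8% of all tested loci did, and 5 rose and 13 fell in Sirt1KO, where 32.4% and 32.7% of all loci did. Against Sirt1KO, 11 rose and 6 fell in Sirt1KO Otx2KD, where 31.1% and 31.5% of all loci did. Against wild-type ESC, 8 rose and 8 fell in Sirt1KO Otx2KD, where 27.1% and 26.8% of all loci did. The list's median log2 differences were -0.08, -0.18, 0.10 and -0.01. Gpx1, the main cytosolic glutathione peroxidase, fell to 310 ± 23.8 FPKM in EpiLC, against 1029 ± 4.78 FPKM in wild-type ESC (log2 difference -1.73, limma adjusted p = 6.61e-13). In Sirt1KO it was at 650.3 ± 27.5 FPKM (log2 difference -0.66 against wild-type ESC, adjusted p = 1.45e-08) and in Sirt1KO Otx2KD at 1019 ± 9.81 FPKM. Gpx2, a peroxidase known from the gut epithelium, lay on opposite sides of wild-type ESC, at 3.58 ± 0.975 FPKM in EpiLC, 19.2 ± 1.45 FPKM in Sirt1KO Otx2KD, 42.5 ± 3.93 FPKM in Sirt1KO and 10.7 ± 0.712 FPKM in wild-type ESC. Both differences passed the test, at -1.38 in EpiLC (adjusted p = 4.69e-07) and 1.89 in Sirt1KO (adjusted p = 4.07e-08). Gpx4, which reduces lipid hydroperoxides in membranes, fell in Sirt1KO to 30.1 ± 2.51 FPKM, against 73.8 ± 2.83 FPKM in wild-type ESC (log2 difference -1.27, adjusted p = 4.37e-10).

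Genes of the Nrf2 and xenobiotic response were tested for 27 of 30. Of these, 7 rose and 16 fell in EpiLC, beside 35.8% and 38.8% of all tested loci, and 6 rose and 13 fell in Sirt1KO, beside 32.4% and 32.7%. In Sirt1KO Otx2KD, 11 rose and 5 fell against Sirt1KO, beside 31.1% and 31.5% of all loci, and 4 rose and 9 fell against wild-type ESC, beside 27.1% and 26.8%. The median log2 differences of this list were -0.54, -0.13, 0.03 and -0.12 in the same order. The gene of Nrf2 itself, Nfe2l2, was at 52.7 ± 3.82 FPKM in EpiLC, 80.9 ± 1.03 FPKM in Sirt1KO Otx2KD, 75.5 ± 5.2 FPKM in Sirt1KO and 74.5 ± 2.97 FPKM in wild-type ESC. It fell in EpiLC (log2 difference -0.49, limma adjusted p = 1.97e-06), and did not pass the test in Sirt1KO (0.02, adjusted p = 0.806). Nqo1, a quinone reductase and an often used Nrf2 target, fell to 23.0 ± 1.86 FPKM in EpiLC, against 117 ± 3.38 FPKM in wild-type ESC (log2 difference -2.30, adjusted p = 4.47e-13), while in Sirt1KO it was at 119 ± 6.94 FPKM (log2 difference 0.02, adjusted p = 0.761). Hmox1, haem oxygenase, rose in Sirt1KO to 103 ± 3.95 FPKM, against 43.5 ± 0.904 FPKM in wild-type ESC (log2 difference 1.23, adjusted p = 1.33e-10). Nqo1 and Hmox1 lie on chromosome 8, and with chromosome medians removed the Sirt1KO difference of Nqo1 was -0.44 (adjusted p = 1.58e-05) and that of Hmox1 was 0.77 (adjusted p = 1.41e-08). The cytochromes Cyp1a1 and Cyp1b1, both targets of the aryl hydrocarbon receptor, changed in opposite directions in Sirt1KO. Cyp1a1 was at 3.09 ± 0.264 FPKM in Sirt1KO Otx2KD, 14.4 ± 0.275 FPKM in Sirt1KO and 3.18 ± 0.262 FPKM in wild-type ESC (log2 difference 1.88 for Sirt1KO against wild-type ESC, adjusted p = 1.09e-10). Cyp1b1 was at 7.19 ± 0.199 FPKM in Sirt1KO Otx2KD, 1.07 ± 0.1 FPKM in Sirt1KO and 6.87 ± 0.555 FPKM in wild-type ESC (log2 difference -1.92 for Sirt1KO against wild-type ESC, adjusted p = 7.28e-10).

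**Figure D5:**
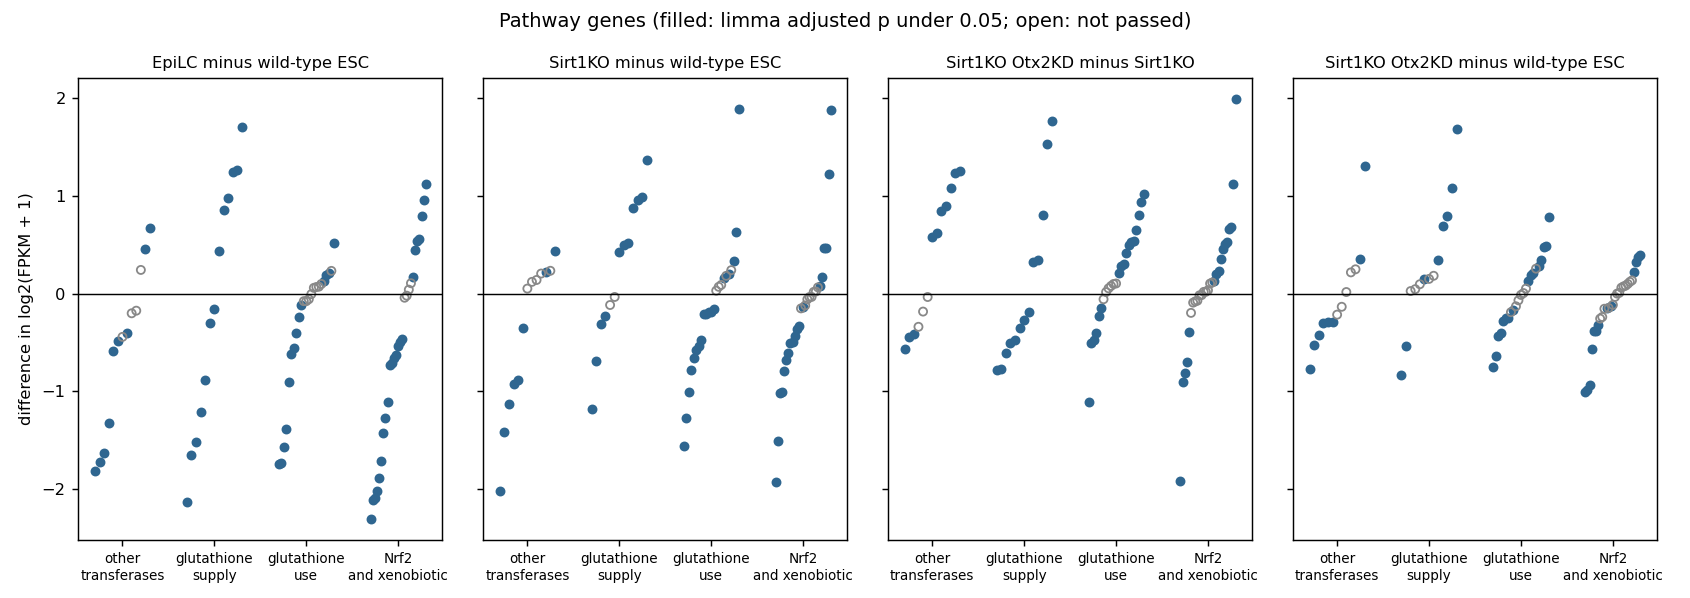
Differences in log2(FPKM + 1) of the tested genes of 4 lists, with 1 panel per comparison and the genes of a list sorted by value; filled points passed limma's adjusted p of 0.05 and open points did not. Gss in EpiLC (-2.13) and Nqo1 in EpiLC (-2.30) are the lowest points of their lists, and Gpx2 in Sirt1KO (1.89) is the highest of its list.

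Genes with patterns most like those of the 3 genes with the widest range of group means on the log2(FPKM + 1) scale were looked up by Pearson correlation of log2(FPKM + 1) over the 12 libraries among 8495 loci. The choice depends on this scale, since by the plain ratio of the highest to the lowest group mean Gstt1 (9.78) came before Mgst1 (8.55). The 12 points are 4 groups of 3, so the measure mostly follows the group means, and it is given as a description. For Gsto1 they were Nup210 (0.994), Arhgef18 (0.992) and Fam107b (0.991), and Fam107b was at 5.88 FPKM in EpiLC, 20.4 FPKM in Sirt1KO Otx2KD, 8.94 FPKM in Sirt1KO and 8.57 FPKM in wild-type ESC on average. For Mgst1 they were Cacnb3 (0.977), Snx8 (0.975) and Tgif2 (0.973). For Gstt2 they were Zfp948 (0.992), Flot2 (0.990) and Ivns1abp (0.988), and Ivns1abp was at 92.2 FPKM in EpiLC, 29.6 FPKM in Sirt1KO Otx2KD, 88.3 FPKM in Sirt1KO and 32.7 FPKM in wild-type ESC on average.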

How the data were processed

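RNA of 12 mouse libraries in 4 groups of 3, grouped by the sample titles, was used. TopHat, Cufflinks, Cuffdiff and the build mm9 are named in the submitters' processing notes, with versions not given in the sources used here. The authors deposited 1 FPKM per locus and library, without counts, so the number of fragments behind a value is unknown. Of 27914 loci, 4778 without a gene name held 95.3% to 96.9% of the FPKM sum of a library and were left out. Named loci with at least 1 FPKM in at least 3 libraries (12320) were fitted as log2(FPKM + 1) with limma 3.58.1 in R 4.3.3 (a mean per group, empirical Bayes with trend and robust), with Benjamini-Hochberg adjustment over all of them and calls at an adjusted p under 0.05. The fit was also run on simulated data in which few loci changed. That run does not show how correct the calls are in these data, where most loci are called.

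The genes and lists were chosen with earlier results of these data known. Of each list and comparison, up to 4 called genes with the largest differences and a mean of at least 5 FPKM in the higher group could be named, of which a part is printed. Nfe2l2, the untested or uncalled neighbours of the 10 genes (Gstm7, Gstm4, Gstt3, Gstt4, Gsto2 and Gsta1) and further comparisons of named genes lie outside this rule and were chosen after their values were seen. Alternatives were a pseudocount of 0.1, no filter, quantile and median-of-ratios scaling, chromosome medians removed, a replicate block, the compared groups alone and each library left out. Shared 50-base stretches come from GENCODE M21 transcripts.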

Additional observations from a re-analysis of the deposited data

How the results depend on the processing

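The counts of genes called stayed within 1.5 times the reported ones in all 76 alternatives over all genes and all 304 over the 4 lists. Leaving out each library in turn gave 8769 to 9223 calls for EpiLC against wild-type ESC, 7454 to 8005 for Sirt1KO against wild-type ESC, 7078 to 7721 for Sirt1KO Otx2KD against Sirt1KO and 6014 to 6790 for Sirt1KO Otx2KD against wild-type ESC. Of the alternative values of the 10 transferases, 742 stayed within the spread between replicates and 18 moved by more, of which 10 came with a pseudocount of 0.1, 5 with quantile normalization and 3 with chromosome medians removed. Most of the 742 could not have moved further. A difference of group means is the same without the filter, with the compared groups alone or with the replicate block (40 values each). Leaving out a library (480 values) cannot shift it past the spread used as the limit. These values therefore do not show how steady the differences are. Gsta4 in Sirt1KO Otx2KD against wild-type ESC was at -0.025 with quantile normalization and 0.014 as deposited. Alternatives were also run for the list genes that could be named and for Sirt1 and Otx2. Of these values, 2751 kept their call or lack of one, 35 lost a call, 23 gained one and 3 changed sign. Leaving out a library gave 26 of the 35 losses. With chromosome medians removed, 3 other genes changed sign in Sirt1KO Otx2KD against wild-type ESC, none past the threshold: Gpx3 at 0.12 (limma adjusted p = 0.174), Gsr at -0.032 (adjusted p = 0.479) and Hmox1 at -0.054 (adjusted p = 0.399). These genes lie on chromosomes 11 and 8, and the cause was not tested.

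The replicate numbers did not pair the libraries: over 18 same-numbered pairs the deviations from the group means correlated at -0.107 to 0.17, and not every library correlated best with its own number. With the replicate number as a block, 9080 genes were called for EpiLC against wild-type ESC, 7893 for Sirt1KO against wild-type ESC, 7567 for Sirt1KO Otx2KD against Sirt1KO and 6500 for Sirt1KO Otx2KD against wild-type ESC. Without fragment counts, the counting error of low genes such as Gstt1 and Mgst1 cannot be given.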
